A study of Mus musculus with 3 samples.

Results

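Clear cells are the proton-secreting cells of the epididymal duct, the tube in which sperm mature and are stored. They carry the vacuolar proton pump (V-ATPase), a ring of cytosolic V1 subunits that splits ATP and a membrane-bound V0 sector that passes protons, in vesicles and in the apical membrane, and keep the fluid around stored sperm acidic. Foxi1, a forkhead transcription factor, switches on pump subunits of such cells in the epididymis, the kidney (intercalated cells) and the inner ear. Here 519 cells were taken as clear cells, 408 in the corpus and 111 in the cauda, out of 14845 deposited cells, of which 14555 had at least 200 detected genes. A clear cell had at least 3 of the genes Foxi1, Atp6v1b1, Atp6v1g3, Atp6v0d2 and Atp6v0a4 detected and at least 10 unique molecular identifiers (UMIs, one per captured transcript) of them per 10000 UMIs of the cell. It also had at most 2 UMIs of Krt5 (basal cells), Ptprc (leukocytes) and Pecam1 (endothelium) together. Slc4a9, also named in the rule, was not analysed here.

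Single-cell RNA sequencing had been done with the Singleron GEXSCOPE kit on enzyme-digested, strained and red-cell-lysed epididymis of untreated wild-type C57BL/6 mice aged 56 days. Each region had 1 library, and the labels do not say how many animals went into it. Corpus and cauda are each described on their own, and caput cells that met the same rule (813 of 4939) serve as a comparison. Every level is a sum of UMIs over a set of cells, scaled to 1000000 UMIs of that set (CPM). With 1 library a region, no test was possible, and a gap between regions cannot be told apart from a gap between libraries. Ratios have exact conditional binomial 95% intervals, levels exact Poisson intervals and shares Clopper-Pearson intervals, and all of these cover counting error only. To be called higher or lower, a gene needed a ratio of 4 or more, an interval that left out 2, and 30 or more UMIs in the set with the higher level. Since the 5 genes above chose the cells, all gaps between clear cells and the other cells of a library are descriptions.

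Clear cells made up 8.45% of the 4831 corpus cells kept (interval 7.68 to 9.27) and 2.32% of the 4785 cauda cells kept (1.91 to 2.79). The median clear cell had 3866 UMIs and 1637 genes in the corpus, against 2537 UMIs and 1043 genes in the other corpus cells. In the cauda the medians were 6673 UMIs and 2482 genes in clear cells, against 2123 UMIs and 925.5 genes in the other cells. A rule that asks for at least 3 detected genes favours deeper cells, and its part in these gaps was not tested. The libraries held 21495211 UMIs for the corpus, 18341476 for the cauda and 41500792 for the caput, which stood apart in depth. Mitochondrial transcripts took a median of 18.4% of UMIs in corpus clear cells and 15.5% in cauda clear cells, against 12.6% and 10.4% in the other cells of these libraries, and no ceiling on this share was applied. The pairs of libraries shared 14 to 21 cell barcodes, and 0 of these were clear cells in both. Doublets were not called.

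All 5 genes of the rule were detected in 107 corpus and 42 cauda clear cells, 4 of them in 130 and 37, and 3 of them in 171 and 32. Their summed level per cell ran from 10.7 over a median of 53.2 to 199 UMIs per 10000 in the corpus, and from 11.7 over 45.9 to 137 in the cauda. At the lower edge, 6 corpus cells and 1 cauda cell lay between 10 and 12, while 7 and 1 cells that met the other conditions lay between 8 and 10, outside. A further 189 corpus and 68 cauda cells had 2 of the genes at 10 or more per 10000, with median depths of 2000 and 1414.5 UMIs, and were left outside. The excluded markers removed 25 corpus and 5 cauda cells.

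The proton pump itself sets out what the rule chose. Foxi1 stood at 497 CPM in corpus clear cells, against 19.1 in the other corpus cells, and at 571 in cauda clear cells, against 8.26. The B1 subunit Atp6v1b1, mutated in human renal tubular acidosis with deafness, had 176 against 7.17 in the corpus and 137 against 3.20 in the cauda. The G3 subunit Atp6v1g3 reached 3362 against 202 in the corpus and 2946 against 64.5 in the cauda. The V0 subunits behaved alike, with Atp6v0d2 at 478 against 21.5 in the corpus and 668 against 13.7 in the cauda. Atp6v0a4, the a4 subunit of acid-secreting cells, had 194 against 8.59 in the corpus and 162 against 2.85 in the cauda. None of the 5 genes met the size rule between corpus and cauda clear cells. The same thresholds on these genes chose the cells of both regions, so alike levels of them follow in part from that choice.

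Among the 22 other pump subunits and accessory proteins, 18 could have met the size rule in each region, and 3 did so upward in the corpus and 7 in the cauda, with 0 downward. Over all genes, 2.49% were called higher and 3.37% lower in corpus clear cells, and 3.37% higher and 8.01% lower in cauda clear cells. Atp6v1a, the catalytic A subunit that binds ATP, had 1743 CPM in corpus clear cells, against 230.5 in the other cells (7.56-fold, 7.24 to 7.90). In the cauda it had 2481 against 199.9 (12.4-fold, 11.8 to 13.1). Atp6v1e1, a stalk subunit, had 798 against 151 in the corpus and 1228 against 115 in the cauda. Atp6v1c2, an isoform of the subunit that clamps V1 onto V0, had 201 against 39.9 in the corpus and 297 against 15.1 in the cauda. The 4 further subunits called in the cauda were Atp6v1d, Atp6v1h, Atp6v0b and Atp6v0e, with ratios of 6.17, 5.88, 5.48 and 4.52, and their corpus ratios were 3.26, 2.89, 3.75 and 2.29. The list's median log2 ratio was 1.14 in the corpus and 1.51 in the cauda, against 0.09 and 0.19 for all genes. Summed, the list took 6022 CPM in corpus clear cells, against 2024 in the other cells, and 8252 in cauda clear cells, against 1549. Between corpus and cauda clear cells, 0 of the 17 genes of the list that could have met the rule did so, beside 1.51% higher and 0.941% lower of all genes.

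**Figure D1:**
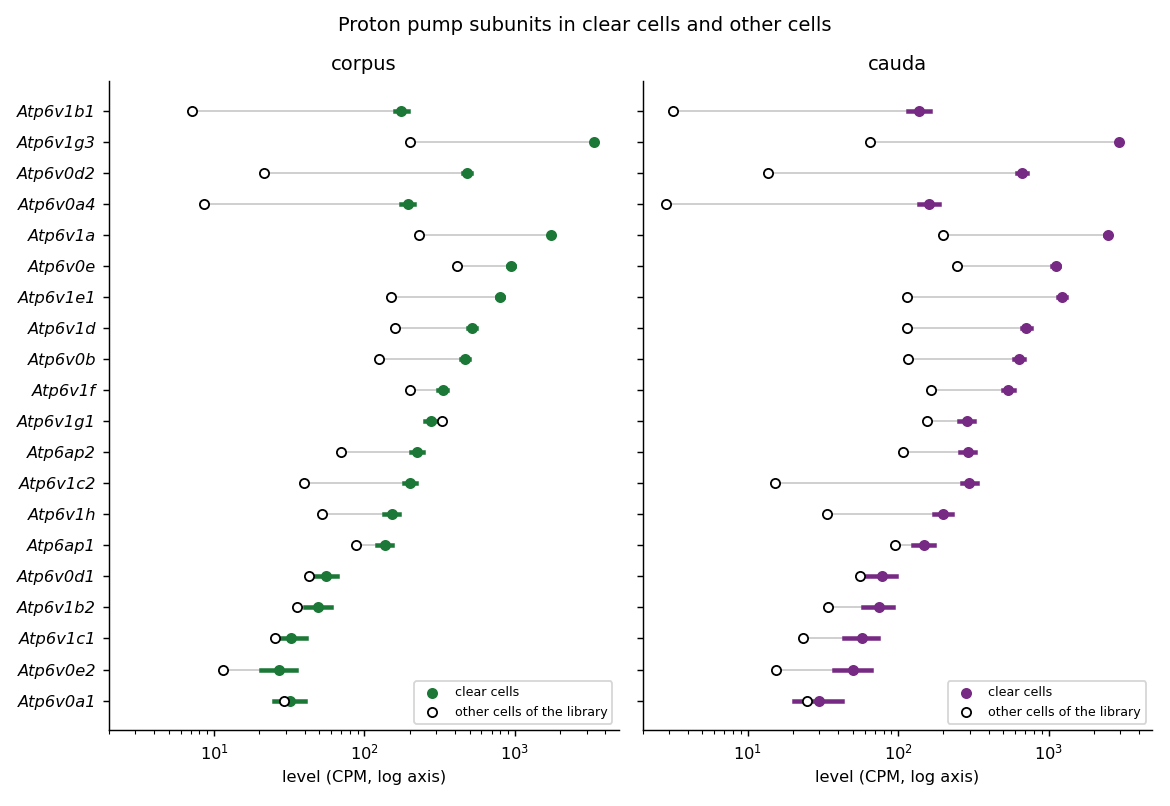
Levels of proton pump genes in CPM (log axis) in the corpus (left panel) and cauda (right panel): filled points are clear cells with exact Poisson 95% intervals, open points the other cells of the library, and the 4 uppermost genes belong to the rule. Atp6v1a lies at 1743 and 2481 in clear cells, far to the right of the other cells, while Atp6v0a1 and Atp6v0d1, the widely expressed isoforms, lie close to them.

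Several subunits exist as a widely expressed isoform and one restricted to few tissues, and the share of the restricted form within each pair was set against that in the other cells. UMIs of 2 genes were not scaled to transcript length, so these shares are read only between sets of cells. Atp6v1g3 took 92.4% of the UMIs of the pair Atp6v1g3 and Atp6v1g1 in corpus clear cells (7344 UMIs beside 603), against 38.2% in the other cells, and 91.1% against 29.4% in the cauda. Atp6v0d2 took 89.6% of its pair with Atp6v0d1 in corpus clear cells, against 33.3%, and 89.5% against 19.8% in the cauda. Atp6v0a4 took 85.8% of its pair with Atp6v0a1 in the corpus, against 22.8%, and 84.3% against 10.3% in the cauda. Atp6v1b1 took 78.1% of its pair with Atp6v1b2 in corpus clear cells (interval 74.2 to 81.7), against 16.7% in the other cells. In cauda clear cells it took 64.8% (58.1 to 71.2), against 8.57%. The rule fixed the first gene of these 4 pairs but not of the other two. Atp6v1c2 took 86.1% of its pair with Atp6v1c1 in corpus clear cells (82.8 to 89.0), against 61.1% in the other cells, and 83.9% in cauda clear cells (79.7 to 87.5), against 39.4%. Atp6v1e2, an isoform known from testis, went the other way in its pair with Atp6v1e1: it had 0 UMIs beside 1744 in corpus clear cells (upper limit 0.211%), against 18 beside 2879 in the other cells (0.621%). In the cauda it had 0 UMIs in clear cells and 0 in the other cells.

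**Figure D2:**
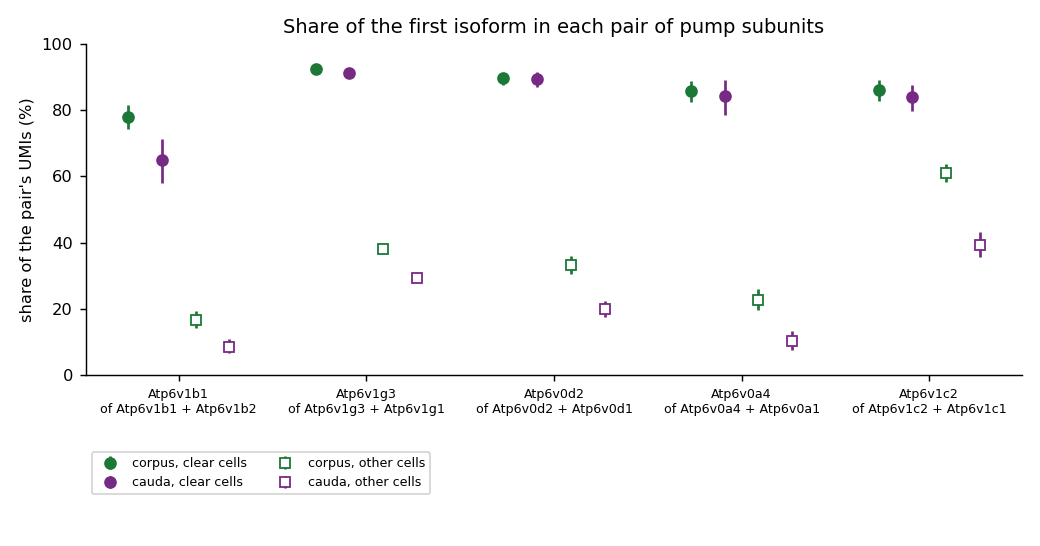
Share of UMIs (percent, axis from 0 to 100) taken by the first gene of 5 pairs of pump subunit isoforms (the pair of Atp6v1e2, at 0 in clear cells, is not drawn), in clear cells (filled circles) and the other cells (open squares) of the corpus (green) and cauda (purple), with Clopper-Pearson 95% intervals. All circles lie above the squares of the same region, with the smallest gap in the Atp6v1c2 pair of the corpus, 86.1% against 61.1%.

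Acid-base transport carried further differences, with 4 genes higher and 2 lower of the 20 that could meet the rule in the corpus, and 6 higher and 2 lower of 17 in the cauda. Clcn5, an endosomal chloride-proton exchanger that accompanies the pump in kidney tubules, had 1862 CPM in corpus clear cells, against 93.6 in the other cells (19.9-fold, 18.8 to 21.0). In the cauda it had 2645 against 56.6 (46.7-fold, 43.4 to 50.3). Slc26a3, a chloride-bicarbonate exchanger, had 213 against 12.04 in the corpus and 425 against 11 in the cauda. Slc9a2, a sodium-proton exchanger, had 36.6 against 4.29 in the corpus and 37.7 against 1.80 in the cauda. Hvcn1, a voltage-gated proton channel, was called in the corpus at 19.7 against 3.82, and in the cauda had 29.99 against 7.56, a ratio of 3.97 that fell short of 4. Clear cells of both regions thus shared Clcn5, Slc26a3 and Slc9a2 among the called genes.

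Carbonic anhydrases of clear cells were set against very unequal levels in the other cells. Car2, the cytosolic carbonic anhydrase that supplies protons to the pump, had 441 CPM in corpus clear cells and 526 in cauda clear cells. The other cells had 253 in the corpus but 21.1 in the cauda, so the ratio was 1.75 in the corpus (1.63 to 1.87) and 24.9 in the cauda (21.8 to 28.5). Car12, a membrane-bound form facing the lumen or interstitium, had 20.1 against 10.4 in the corpus and 72.6 against 5.70 in the cauda. Rhbg, an ammonia transporter, had 15.6 against 4.82 in the corpus and 29.99 against 1.11 in the cauda. Car3, an isoform known from muscle and fat, had 4.58 against 23.7 in the corpus and 2.90 against 21.5 in the cauda. Slc4a4, a sodium-bicarbonate cotransporter, had 0.458 against 5.50 in the corpus, and 0 UMIs in cauda clear cells against 28.1 CPM in the other cells. Car4, a membrane-anchored form, was the only gene of the list called between the regions, with 203 CPM in corpus clear cells and 0.968 in cauda clear cells (210.1-fold), but the other corpus cells held more of it, 428 CPM.

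Genes known from kidney intercalated cells or airway ionocytes, the other Foxi1-dependent cells, were mostly higher: 10 of the 14 that could meet the rule in the corpus and 11 of 13 in the cauda, with 0 lower. The list median log2 ratio was 2.98 in the corpus and 4.41 in the cauda. Tfcp2l1, a transcription factor required for intercalated cells in the mouse kidney, had 323 CPM in corpus clear cells, against 24.1 in the other cells, and 456 against 11.2 in the cauda. Dmrt2, a transcription factor of the acid-secreting intercalated type, had 152 against 8.64 in the corpus and 225 against 4.31 in the cauda. Stap1, a signalling adaptor, had 2795 against 145 in the corpus and 1400.0 against 34.4 in the cauda. Esrrg, an orphan nuclear receptor linked to oxidative metabolism, had 26.1 against 3.30 in the corpus and 39.7 against 1.75 in the cauda.

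The surface and channel genes of the same list followed. Bsnd, which encodes barttin, an accessory subunit of chloride channels, had 28.8 CPM in corpus clear cells, against 1.20 in the other cells, and 31.9 against 0.931 in the cauda. Kit, a receptor tyrosine kinase, had 83.3 against 7.70 in the corpus and 121 against 5.70 in the cauda. Adgrf5 is an adhesion G protein-coupled receptor of intercalated cells, and it had 382 against 36.6 in the corpus and 339 against 12.2 in the cauda. Hepacam2 had 143 against 11 in the corpus and 77.4 against 3.55 in the cauda. Tmem213 was called in the corpus only, at 78.3 against 4.35, with 12.6 against 0.931 in the cauda (13.5-fold on 13 UMIs). Mme, the peptidase neprilysin, and Gata3, a transcription factor, were called in the cauda at 5.10-fold and 4.37-fold, and had corpus ratios of 2.23 and 2.10.

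**Figure D3:**
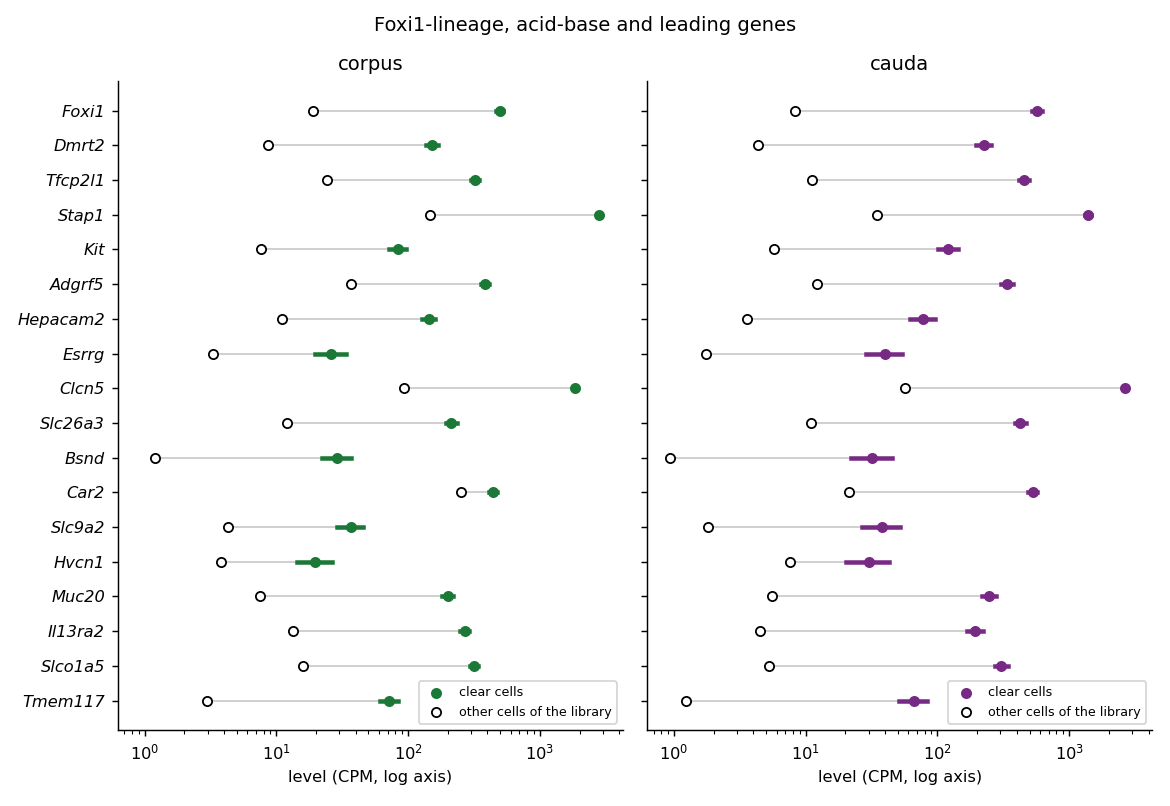
Levels in CPM (log axis) of Foxi1-lineage, acid-base and leading genes in clear cells (filled points with exact Poisson 95% intervals) and the other cells of the library (open points), corpus on the left and cauda on the right. All filled points lie to the right of the open ones, and Car2 shows the gap of the other cells, 253 in the corpus and 21.1 in the cauda.

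Over all genes, 281 of 11280 were called higher and 380 lower in corpus clear cells, and 333 of 9879 higher and 791 lower in cauda clear cells. Of the higher genes, 179 were common to both regions, 63.7% of the corpus genes and 53.8% of the cauda genes. The common lower genes numbered 290, 76.3% and 36.7%. The 15 leading genes of each region, ranked by the lower limit of the ratio, had 8 in common, and these were Clcn5, Stap1, Dmrt2, Slc26a3, Muc20, Il13ra2, Slco1a5 and Tmem117. Muc20, a membrane mucin, had 199.6 against 7.49 CPM in the corpus (26.7-fold, 22.0 to 32.4) and 248 against 5.59 in the cauda (44.3-fold, 34.9 to 56.7). Il13ra2, the decoy receptor for interleukin-13, had 269 against 13.2 in the corpus and 193 against 4.48 in the cauda. Slco1a5, an organic anion transporter, had 316 against 16.0 in the corpus and 306 against 5.30 in the cauda. Tmem117, a membrane protein, had 71.9 against 2.98 in the corpus and 65.8 against 1.22 in the cauda.

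The remaining leading genes in the corpus were Rnase1 (a secreted ribonuclease), Dact2, Gng4 (a G protein subunit), Sp5 (a transcription factor downstream of Wnt), Ncald (a calcium sensor), Bsnd and Vsig1 (a surface glycoprotein). Vsig1 had 301 against 18.5 CPM there, and 137 against 4.19 in the cauda. Rnase1, at 56.8 against 2.46 in the corpus, was detected in 8.33% of corpus clear cells. Those in the cauda included Klkb1 (plasma prekallikrein), Cldn9 (a claudin), Mcf2 (a guanine nucleotide exchange factor), Tfcp2l1, Gjb1 (connexin 32) and Fut9 (a fucosyltransferase). Mcf2 had 108 against 2.09 in the cauda and 121 against 7.38 in the corpus. Gjb1 had 59.0 against 1.05 in the cauda but 22.4 against 22.9 in the corpus. The named lower genes are known from connective tissue, endothelium, blood or smooth muscle. Col6a5, a collagen VI chain, had 15.6 against 227 in the corpus and 68.7 against 1096 in the cauda. Col1a1, Col1a2, Fmod (fibromodulin) and Calcrl (a peptide receptor of endothelium) completed the corpus 5, and Igfbp5, Hba-a1, Hba-a2 and Myh11 (smooth muscle myosin, 0.968 against 68.7) the cauda 5.

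Detection in single cells showed how evenly these genes were carried. Clcn5 was seen in 93.1% of corpus and 98.2% of cauda clear cells, and in 75.4% and 85.2% after each cell was thinned to 1000 UMIs, which left 407 and 108 cells. Cells with all 3 C1q genes and Ptprc or Csf1r (macrophages by these genes; 195 in the corpus with a median of 3355 UMIs, 571 in the cauda with 4484) should lack Clcn5 at a comparable level, and after thinning 9.23% and 5.14% of them had a UMI of it. Stap1 was seen in 88.2% of thinned corpus and 72.2% of thinned cauda clear cells, against 13.3% and 4.26% of these C1q-positive cells. Tfcp2l1 was seen in 29.7% and 40.7% of thinned clear cells, against 2.05% and 0.532%. The pump gene Atp6v1a was seen in 75.7% and 81.5%, against 28.2% and 28.7%. For these genes the share in clear cells stood well above that in C1q-positive cells in both regions.

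Since forkhead factors bind sequences around TAAACA, the 250 bases upstream of the start sites of the 8 shared leading genes were read from RefSeq (GRCm38.p6), where 7 of the 8 had an entry. TAAACA or its reverse complement TGTTTA was found in 5 of the 9 promoters of these genes (4 of 7 genes), in 1 of 4 promoters of rule genes, and in 12.03% of all 32851 RefSeq promoters of this length. A match is a description of the letters and no sign of binding, and the count is too small to set against that share. Below are a promoter each of Clcn5, Il13ra2 and Slco1a5, leading genes of both regions, and that of the rule gene Atp6v1b1, all 5′ to 3′ on the gene's strand, with the match in capitals. They lie at chrX:7188715-7188964 (minus strand), chrX:147429193-147429442 (minus), chr6:142322982-142323231 (minus) and chr6:83742767-83743016 (plus). The matches begin 120, 99, 95 and 98 bases before the start site.
Clcn5: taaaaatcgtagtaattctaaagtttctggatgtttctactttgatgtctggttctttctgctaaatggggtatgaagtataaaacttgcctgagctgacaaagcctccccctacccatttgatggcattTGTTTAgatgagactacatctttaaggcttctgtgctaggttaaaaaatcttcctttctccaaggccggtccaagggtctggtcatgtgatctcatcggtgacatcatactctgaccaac
Il13ra2: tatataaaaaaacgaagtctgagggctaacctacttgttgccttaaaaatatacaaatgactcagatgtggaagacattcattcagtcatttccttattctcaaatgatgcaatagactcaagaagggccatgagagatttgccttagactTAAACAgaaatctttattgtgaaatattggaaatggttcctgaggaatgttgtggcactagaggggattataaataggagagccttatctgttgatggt
Slco1a5: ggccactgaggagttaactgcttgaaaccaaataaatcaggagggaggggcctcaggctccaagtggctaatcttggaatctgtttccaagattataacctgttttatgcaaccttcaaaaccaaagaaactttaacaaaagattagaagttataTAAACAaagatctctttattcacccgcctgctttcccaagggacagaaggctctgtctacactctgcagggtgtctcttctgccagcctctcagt
Atp6v1b1: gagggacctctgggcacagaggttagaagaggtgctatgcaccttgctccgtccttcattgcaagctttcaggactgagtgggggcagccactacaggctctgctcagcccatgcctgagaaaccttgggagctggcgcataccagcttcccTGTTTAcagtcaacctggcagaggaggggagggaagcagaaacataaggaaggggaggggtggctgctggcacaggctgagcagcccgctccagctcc

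Of the other transport genes, 4 of the 19 channels and pumps that could meet the rule were higher in corpus clear cells and 4 of 20 in the cauda, with 1 lower in each. In this and the following lists the genes named because they met the rule were chosen after their values were seen. The counts of these lists stand beside 2.49% higher and 3.37% lower of all genes in the corpus, and 3.37% and 8.01% in the cauda. Kcnma1 (a large-conductance potassium channel) had 151 against 12.6 CPM in the corpus and 151 against 7.97 in the cauda. Scnn1a, the alpha subunit of the epithelial sodium channel, had 86.1 against 10.8 and 86.1 against 8.15. Kcnq1, a potassium channel, had 62.3 against 8.38 in the corpus and 66.8 against 4.31 in the cauda. S100g, a calcium-binding protein, was called in the corpus, at 49.9 against 5.18. Atp1b1, a subunit of the sodium pump, was called in the cauda, at 517 against 54.6, and had 647 against 254 in the corpus. Fxyd5, a modulator of that pump, was lower in the cauda at 19.4 against 201, and Aqp1, a water channel, in the corpus at 0.458 against 8.59.

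Clear cells take up luminal material by endocytosis, but of 36 genes of endocytosis and lysosomes that could meet the rule 1 was higher in the corpus, and of 35 in the cauda 2 were higher and 2 lower. Dab2, an endocytic adaptor, had 934 against 149 CPM in the corpus and 1892 against 417 in the cauda. Its level in C1q-positive cells was 1116 and 1367, so it does not set clear cells apart from macrophages. Ctss and Ctsz, lysosomal cathepsins, were lower in the cauda. Ctsd, another cathepsin, had 471 against 211 in the corpus and 692 against 266 in the cauda without meeting the rule. Signalling genes that steer pump traffic gave 1 higher gene of 20 in the corpus and 1 of 21 in the cauda, beside 2.49% and 3.37% of all genes. The list's median log2 ratio was 0.01 in the corpus and -0.43 in the cauda. The higher gene was Adora1, an adenosine receptor, with 105 against 20.2 in the corpus and 105 against 14.4 in the cauda. Gucy1a3, a subunit of the nitric oxide receptor, was lower in both, and Ednrb, an endothelin receptor, in the cauda. Of the genes of the apical actin skeleton, 0 of 28 were called in the corpus, and Gsn, Cotl1 and Lcp1 of 27 were lower in the cauda.

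Genes of energy metabolism lay above the other cells in most members, and few of them met the rule. The 46 nuclear genes of the respiratory chain had a median log2 ratio of 0.50 in the corpus, with 42 above 0, and of 0.87 in the cauda, with 46 above 0, and the only one called was Cox7a1 in the corpus (20.1 against 3.88). Glycolysis genes had medians of 1.03 in the corpus and 1.46 in the cauda, and those of the citric acid cycle 0.72 and 0.80. Ldhb, the lactate dehydrogenase subunit of oxidative tissues, had 1288 against 194 in the corpus and 2027 against 342 in the cauda. Aldoc, an aldolase, was also called in the cauda, at 38.7 against 9.48, and Idh3a, of the citric acid cycle, at 114 against 27.1. Ppargc1a, a coactivator of mitochondrial biogenesis, had 28.4 against 3.51 in the corpus and 44.5 against 2.21 in the cauda. Ckmt1, the mitochondrial creatine kinase, had 56.8 against 3.30 in the corpus and 92.9 against 2.79 in the cauda. Mitochondrially encoded transcripts took 17.9% of UMIs in corpus clear cells, against 13.9%, and 14.6% in cauda clear cells, against 10.4%.

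Receptors for hormones gave 2 higher genes of 16 in the corpus, and 0 higher and 1 lower of 14 in the cauda. Esr1, the estrogen receptor alpha, had 94.3 against 18.2 CPM in the corpus (5.18-fold, 4.34 to 6.17), and 108 against 70.9 in the cauda (1.53-fold). Its level in clear cells was thus alike in the regions, and the other cells differed. Nr3c2, the mineralocorticoid receptor, had 21.5 against 1.10 in the corpus, and 13.5 against 1.51 in the cauda, there on under 30 UMIs. Egfr, a growth factor receptor, was lower in the cauda, at 4.84 against 38.2. Among epithelial junction genes 2 of 20 were higher in the corpus and 6 of 18 in the cauda. Cldn10, a claudin, had 112 against 8.54 in the corpus and 162 against 10.6 in the cauda. Krt7, a simple-epithelium keratin, had 244 against 45.3 in the corpus and 186 against 21.4 in the cauda, and Cldn4, Ocln and Dsp were also called in the cauda.

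Clear cells of the corpus and cauda were then set against each other. Of 6164 genes, 93 (1.51%) were higher in corpus clear cells and 58 (0.941%) higher in cauda clear cells. Many of these were abundant in the other cells of the same library: after clone-named transcripts, genes of the rule and genes with a higher level in those other cells were set aside, 12 and 19 were left. Markers of other cell types moved with the same contrast. The 12 fibroblast markers summed to 1695 CPM in corpus clear cells and 7003 in cauda clear cells, beside 8229 and 44308 in the other cells, and 7 of the 10 that could meet the rule were lower in the corpus, with 0 of 12 at 0 UMIs in either region. The 6 erythroid markers summed to 7750.1 in corpus and 1135 in cauda clear cells, with 4 of 4 higher in the corpus, and 1 of the 6 was at 0 UMIs in each region, Alas2 in the cauda. The 26 principal cell markers, of the main secretory cells, summed to 28421 and 23850, with 7 of 17 higher in the corpus, and 7 of the 26, Defb21 and Defb22 among them, were at 0 in the cauda. Their part in the differences below was not tested. After the data were seen, each comparison was therefore repeated without clear cells rich in principal, macrophage, fibroblast or erythroid markers, which left 255 corpus, 59 cauda and 502 caput cells.

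Higher in corpus clear cells were, among others, Rgs2 and Rgs13, Clca3a2 and Clca3a1, Nupr1, Cyp1a1 and Tmem213. Rgs2, which curbs Gq signalling, had 302 CPM in corpus clear cells and 41.6 in cauda clear cells (7.26-fold, 5.33 to 10.1). It was seen in 26.04% of thinned corpus and 4.63% of thinned cauda clear cells, and C1q-positive cells express it themselves, at 749 and 653 CPM. Rgs13, of the same family, had 39.4 in the corpus and 3.87 in the cauda (10.2-fold, 3.83 to 38.2). Clca3a2, a calcium-activated chloride channel regulator, had 380.5 in the corpus and 59.0 in the cauda (6.45-fold, 4.97 to 8.50), and 103 and 68.0 in the other cells. Its neighbour Clca3a1 had 31.1 in the corpus and 0.968 in the cauda on 68 UMIs against 1 (32.2-fold, 5.58 to 1289). The genes lie side by side on chromosome 3, at chr3:144796559-144819494 and chr3:144729677-144760977 on the minus strand of GRCm38.p6, and are near copies, so reads may have been split between them.

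Nupr1, a stress-induced chromatin protein, had 459 CPM in corpus clear cells and 99.7 in cauda clear cells (4.60-fold, 3.76 to 5.69), with 90.3 and 186 in the other cells. Cyp1a1, the cytochrome P450 induced through the aryl hydrocarbon receptor, had 63.6 in the corpus and 7.74 in the cauda (8.22-fold, 4.06 to 19.4), with 4.56 and 0.175 in the other cells. Tmem213, described above, had 78.3 and 12.6 (6.22-fold, 3.54 to 11.9). These 7 genes were also called with the marker-rich cells left out. Nupr1 missed the rule, at 3.58-fold, only when 2 marker genes and 5 UMIs per 10000 sufficed for a clear cell. Rgs13 and Clca3a1, on 86 and 68 corpus UMIs, missed it at least with a minimum of 100 UMIs. Arhgap8 (a GTPase-activating protein), Slc14a1 (a urea transporter) and Zfp467 (a zinc finger factor) completed the named 10 at 17.5-fold, 9.70-fold and 8.52-fold on 36 to 41 corpus UMIs. Without marker-rich cells fewer than 30 corpus UMIs were left for each and none was called. Arhgap8 was then 6.63-fold higher (1.04 to 277) and Zfp467 3.90-fold (0.947 to 34.4). Slc14a1, with 0 cauda UMIs, was 3.64-fold higher by a floor of 3 counts (lower limit of the counting interval 2.77).

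Higher in cauda clear cells were Id1, Id2 and Id4, whose products block basic helix-loop-helix transcription factors. Id4 had 16.5 CPM in corpus clear cells and 272 in cauda clear cells (16.5-fold higher in the cauda, 11.6 to 24.03), beside 17.0 and 53.4 in the other cells. It was seen in 0.491% of thinned corpus and 19.4% of thinned cauda clear cells, against 0.513% and 1.06% of C1q-positive cells. Id1 had 10.99 in corpus and 205 in cauda clear cells (18.7-fold, 12.2 to 29.8), and Id2 had 189.6 and 1121 (5.92-fold, 5.28 to 6.63). The other cells had 28.6 of Id1 and 370 of Id2 in the corpus, and 174 and 1029 in the cauda. Id3, added here after its values were seen, had 39.8 in corpus and 637 in cauda clear cells, beside 136 and 716 in the other cells. The other cells thus also held more of all 4 genes in the cauda, by a smaller ratio than clear cells. Of the 4, only Id4 was far above the other cells in cauda clear cells.

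S100a1, a calcium-binding protein known from muscle, had 141 CPM in corpus clear cells and 823 in cauda clear cells (5.84-fold higher in the cauda, 5.12 to 6.67), beside 53.5 and 160 in the other cells. Adgrf1, an adhesion G protein-coupled receptor, had 3.66 in corpus and 109 in cauda clear cells (29.8-fold, 14.6 to 70.8), and 2.39 in the other cauda cells, on 113 UMIs in cauda clear cells and 41 in those other cells. A UMI of it was seen in 45.0% of cauda clear cells (6.48% after thinning, against 0.177% of C1q-positive cells). Fxyd2, the gamma subunit of the sodium pump, had 8.70 in corpus and 53.2 in cauda clear cells (6.12-fold, 3.57 to 10.9), beside 4.56 and 21.4 in the other cells. It was seen in 9.91% of the cauda clear cells (3.70% after thinning, against 6.38% of C1q-positive cells). Cauda C1q-positive cells had 59.8 CPM of it. S100a1, Adgrf1, Fxyd2, Id1, Id2 and Id4 were called again with marker-rich cells left out. Galnt5 (a mucin-type glycosyltransferase), Spink5 (a protease inhibitor), Numb (an inhibitor of Notch) and Smad7 (an inhibitor of TGF-beta signalling) were not, with fewer than 30 cauda UMIs left for each. Galnt5 had 0 UMIs in corpus and 30 in cauda clear cells, at least 21.1-fold higher in the cauda by a floor of 3 counts over the group (lower limit of the counting interval 16.2), and at least 16.2-fold without those cells. Smad7 was 12.7-fold higher in the cauda, and 26.9-fold without those cells (6.59 to 237). Numb was 11.5-fold higher, and 9.62-fold without them (3.07 to 39.8). Spink5 was 15.3-fold higher, and 2.05-fold without them (0.407 to 9.54).

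**Figure D4:**
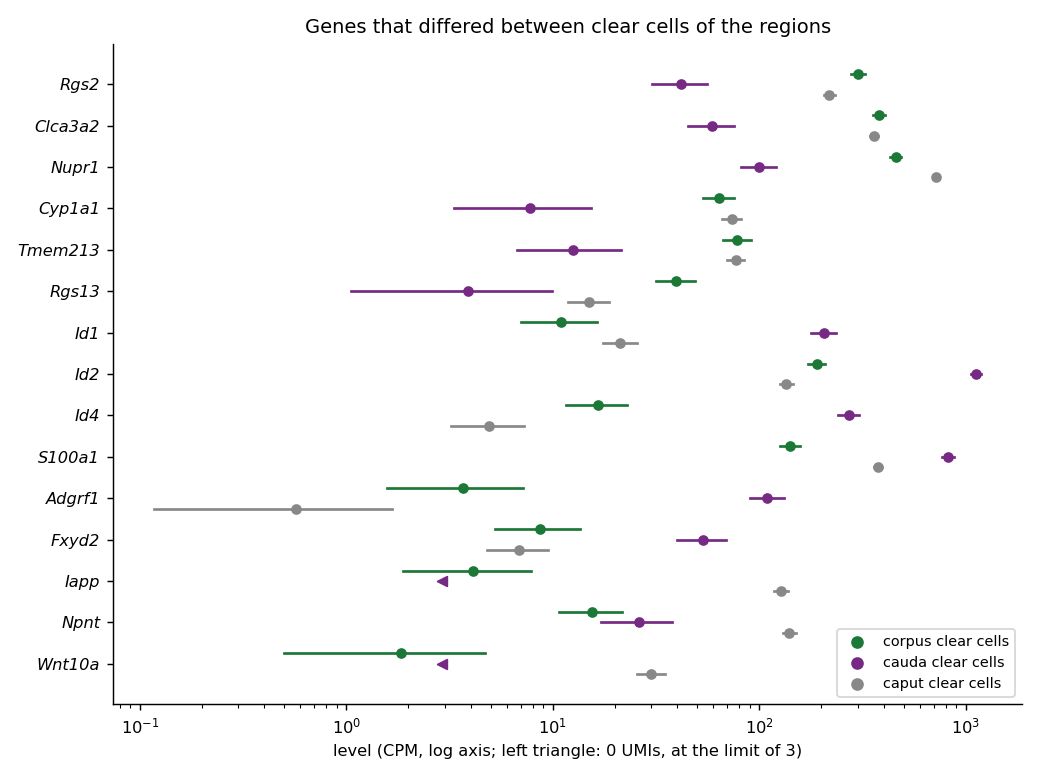
Levels in CPM (log axis) of genes that differed between clear cells of the regions, with exact Poisson 95% intervals, for corpus (green), cauda (purple) and caput (grey) clear cells, and left triangles where no UMI was counted. The first 6 genes are lowest in the cauda, where Rgs2 lies at 41.6. The next 6 are highest in the cauda, with Id2 at 1121, and the last 3 are highest in the caput, with Iapp at 127.

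Against caput clear cells chosen by the same rule, 146 of 8793 genes (1.66%) were higher and 342 (3.89%) lower in corpus clear cells, and 172 of 7506 (2.29%) higher and 294 (3.92%) lower in cauda clear cells. Both comparisons share the caput cells. Caput clear cells had a median of 9.69% mitochondrial UMIs, against 18.4% in corpus and 15.5% in cauda clear cells. With cells over 20% left out, 148 genes were higher and 270 lower in the corpus, and 165 higher and 276 lower in the cauda. After the genes that were more abundant in other cells were set aside as above, 7 and 34 were left for the corpus, and 70 and 50 for the cauda. The 5 rule genes gave 0 calls against the caput in either region, but the same thresholds on them chose the cells of each region. The 22 further pump genes also gave 0 calls, with 18 that could meet the rule in the corpus and 17 in the cauda. Beside the shares of all genes above, 0 calls among so few genes does not show equal levels. Their sums were 6022 CPM in corpus and 8252 in cauda clear cells, against 5228 in caput clear cells. Tmem158, a membrane protein induced by Ras, had 89.7 CPM in corpus clear cells and 97.7 in cauda clear cells, against 14.8 in the caput. The other cells differed in the same direction, with 25.8 in the corpus, 70.2 in the cauda and 7.65 in the caput. Napsa, an aspartic protease, had 120.4 in the corpus and 234 in the cauda, against 23.9 in the caput. Dapk3 (a kinase) and Ifit1 (an interferon-induced protein) were 5.88-fold and 4.62-fold higher in the corpus on 39 and 46 UMIs. Dapk3 had 16.9 CPM in the other corpus cells and 3.76 in the other caput cells. Without marker-rich cells Dapk3 and Ifit1 were 5.88-fold (2.48 to 15.4) and 3.46-fold (1.79 to 6.82) higher on 20 and 25 UMIs, under the minimum for a call.

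Of the named genes lower than in the caput, Iapp, Clec2l and Wnt10a were named for both regions. Iapp, the hormone amylin, had 4.12 CPM in corpus clear cells and 0 UMIs in cauda clear cells, against 127 in the caput. It was 30.9-fold lower in the corpus (16.2 to 67.9). By the floor of 3 counts it was 43.9-fold lower in the cauda (lower limit of the counting interval 35.6). Npnt, the matrix protein nephronectin, had 15.6 in the corpus and 26.1 in the cauda, against 139.8 in the caput. Wnt10a, a Wnt ligand, had 1.83 in the corpus and 0 UMIs in the cauda, against 30.01 in the caput. Clec2l, a lectin-like protein, had 0 UMIs in both, against 39.5 CPM in the caput. By the same floor it was 28.8-fold lower in the corpus (lower limit 23.2) and 13.6-fold lower in the cauda (lower limit 10.97). Ecel1, an endopeptidase-like protein, had 0 UMIs in the corpus, and Gabrb1 (a GABA receptor subunit) and Fam101a had 0 in the cauda. In these comparisons the genes kept their calls without marker-rich cells. A UMI was seen in 7.26% of caput clear cells for Iapp and in 45.8% for Npnt, and in 3.44% and 13.2% after thinning.

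Cauda clear cells had more Adgrf1 than caput clear cells, 109 against 0.570 CPM. The other 4 leading genes, Defb40 (a defensin), Npy (neuropeptide Y), Cwh43 and Pate1 (a secreted sperm-associated protein), were about as abundant in the other cauda cells. Defb40 had 865 in cauda and 2.28 in caput clear cells, beside 754 in the other cauda cells. Without marker-rich cells Defb40 was 30.9-fold higher in the cauda than in the caput instead of 379.5-fold. Defb40, Npy and Cwh43 then met the rule as lower in cauda clear cells than in the other cauda cells. Their levels were 93.2 against 754, 36.4 against 408 and 13.6 against 134. Against the caput, Npy, Cwh43 and Pate1 were no longer called, on 16, 6 and 4 cauda UMIs. Npy was then 19.3-fold higher (6.76 to 67.4), Cwh43 9.05-fold (2.15 to 43.6) and Pate1, with 0 caput UMIs, 8.04-fold by the floor.

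Clear cells of 1 region also varied among themselves. With every cell thinned to 1000 UMIs, the median variance over mean was 1.08 for 1459 genes in the corpus and 1.07 for 1607 genes in the cauda, close to the value of 1 that counting alone gives. The genes with the largest ratios were in the corpus Hba-a1, Hbb-bs, mt-Rnr2, Hba-a2, Spint4, Hbb-bt, Spint5, Cd74, mt-Rnr1 and Spink8. In the cauda they were mt-Rnr2, Retnia, Hbb-bs, Hba-a2, Cd52, Col1a2, mt-Rnr1, Sparc, Hba-a1 and Malat1. Besides mitochondrial ribosomal RNA and Malat1, these are known as genes of red cells, principal cells, leukocytes and fibroblasts. Hba-a1 had a mean of 2.64 UMIs per thinned corpus cell, a median of 1 and a maximum of 113.

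The 408 corpus clear cells fell into 6 sub-clusters, which are given by number. Sub-cluster 1, with 148 cells, was led by Hba-a2, Hba-a1 and Hbb-bt, and its erythroid markers summed to 21026 CPM, against 3649 in the other corpus clear cells. Sub-cluster 0, with 94 cells, was led by the immediate-early and stress genes Atf3, Klf4 and Fosb, with Atf3 at 3326 against 506. Sub-cluster 3, with 72 cells, was led by Napsa, Mpzl1 and Elovl7 and had Kit among its leading genes, at 166 against 70.7. Its rule genes summed to 6642 against 4412, and its principal markers to 5281 against 31947. Sub-cluster 3 also had the highest median mitochondrial share of the 6, 25.96% of UMIs, above the ceiling of 20% used as an alternative. Its median depth was 3380.5 UMIs. Whether low cell quality played a part in its leading genes was not tested. Sub-cluster 2, with 73 cells, was led by Defb21, Spink11 and Spint5, had principal markers at 57345 against 11378, rule genes at 2683 against 5899 and a median of 9299 UMIs. Sub-cluster 4, with 8 cells, was led by Mgp, Col1a1 and Col1a2, and sub-cluster 5, with 13 cells, by Cxcl2, Ccl8 and Pf4. Cells of sub-clusters 2, 4 and 5 thus carried genes of the rule together with many transcripts of principal cells, fibroblasts or macrophages. Those of sub-cluster 1, the largest, did so with erythroid transcripts, and their germ cell markers summed to 902 against 116. Whether cells of these 4 sub-clusters are mixed captures or hold RNA from outside the cell was not tested.

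**Figure D5:**
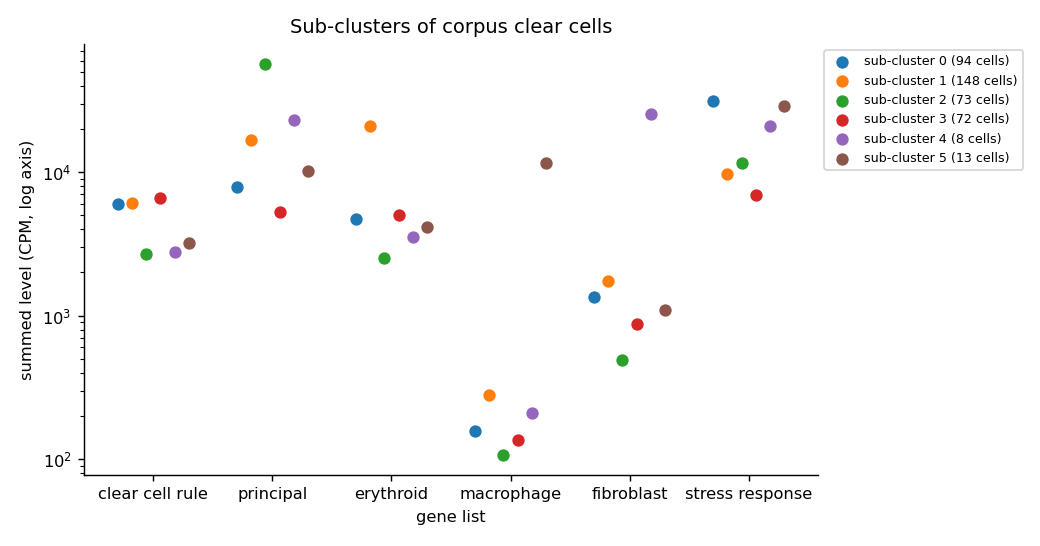
Summed level (CPM, log axis) of 6 gene lists in the 6 sub-clusters of corpus clear cells, 1 point per sub-cluster. Sub-cluster 2 has the highest principal and lowest rule-gene level (57345 and 2683), sub-cluster 4 the highest fibroblast level, sub-cluster 5 the highest macrophage level and sub-cluster 1 the highest erythroid level.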

How the data were processed

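The alignment used STAR 2.7.3a and GRCm38.p6, and UMIs were counted with UMI-tools, per the submitters' processing notes. The authors deposited 1 merged matrix of raw UMI counts (whole numbers, 24335 genes), and the sources used here do not give how cells were called. From these counts, cells with at least 200 detected genes were kept, clear cells were taken by the marker rule, and UMIs were summed per region and set of cells. Each region had 1 library, so shares, levels and ratios carry counting intervals only. All members, gene lists, the size rule and most alternatives were chosen with earlier results of these data known. Named genes were, against the other cells, the 15 higher genes with the largest lower limit of the ratio and the 5 lower ones with the smallest upper limit. Between regions they were 10 each way (5 against the caput), at a level no lower than in the other cells of the higher region, leaving out rule genes and clone names. All pump, acid-base and Foxi1-lineage genes could be named, as could the 4 most abundant of each other list and the 10 most variable genes. A few genes that the rule takes in are not reported here. A list gene could meet the size rule where enough UMIs were counted. Cells were thinned to 1000 UMIs to compare detection. Corpus clear cells were clustered with the Leiden method (resolution 0.5, 1000 variable genes, 20 components, 15 neighbours, seed 0) in scanpy 1.11.5 with igraph 0.11.9. TMM factors came from edgeR 4.0.16 in R 4.3.3. The other steps ran in Python 3.11.15 with numpy 2.4.6, scipy 1.17.1, pandas 2.3.3 and matplotlib 3.10.9. The ratio rule was tested on simulated data. Alternatives were other marker rules, a mitochondrial ceiling of 20%, a minimum of 500 genes, cells of very high UMIs left out, means over cells, thinning, other UMI minimums, TMM scaling, and, added after the data were seen, clear cells rich in markers of other cell types left out (3 times the region's median and at least 20 UMIs per 10000).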

Additional observations from a re-analysis of the deposited data

How the results depend on the processing

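No paired analysis was possible because each region had 1 library. No named gene changed direction under any alternative. Called under every alternative were 18 of 20 named genes against the other corpus cells and 13 of 20 against the other cauda cells. Between corpus and cauda clear cells these were 9 of 20. Against the caput they were 5 of 10 for the corpus and 6 of 10 for the cauda. The share of clear cells moved with the marker rule: with 2 genes and 5 UMIs per 10000 it was 14.1% in the corpus, 4.12% in the cauda and 23.7% in the caput, and with 4 genes and 20 UMIs 4.60%, 1.55% and 9.68%. Leaving out cells over 20% mitochondrial UMIs gave 6.77% in the corpus, and a minimum of 500 genes gave 9.27% in the corpus and 3.06% in the cauda. Counts of called genes moved with the UMI minimum, except the lower genes against the other cells, which stayed at 380 in the corpus and 791 in the cauda. With 100 UMIs, the higher and lower genes between corpus and cauda numbered 51 and 13, the higher genes against the other cells 153 in the corpus and 140 in the cauda, and against the caput the corpus had 78 higher and 189 lower and the cauda 69 higher. With 10 UMIs, 106 genes were lower in corpus than in cauda clear cells, and 295 (corpus) and 327 (cauda) were higher than in the caput. Without cells rich in markers of other types, an alternative chosen after seeing the data, 22 genes were lower in corpus than in cauda clear cells, 625 lower in corpus clear cells than in the other cells, and against the caput 49 were higher and 225 lower in the corpus and 63 higher and 188 lower in the cauda. Of the main calls between corpus and cauda clear cells, it kept 45 of 93 higher and 14 of 58 lower genes. Against the caput it kept 45 of 146 higher and 184 of 342 lower genes in the corpus. In the cauda it kept 54 of 172 higher and 140 of 294 lower genes against the caput. Means over cells, which have no interval, gave 1120 lower genes in the corpus, 1513 in the cauda and 499 in the cauda against the caput, and thinned sums 225, 525 and 194. The looser marker rule gave 238 lower genes in the corpus, and the stricter one 211 lower in the corpus against the caput. The cause of these shifts was not tested beyond what each setting removes. TMM factors of 0.981, 1.08 and 0.941 for corpus, cauda and caput moved no count past 1.5 times. The smaller number of cauda clear cells, 111, limits what could be called there.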

Other observations

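Immune genes that were called against the other cells were lower in clear cells, with 1 exception. Of the antigen presentation genes that could meet the size rule, 3 of 12 were lower in the corpus and 5 of 16 in the cauda, all of the MHC class II pathway, with 0 higher, and the list's median log2 ratio was -0.13 and -1.09. Cd74, the class II invariant chain, had 323 CPM in corpus clear cells, against 1340.4 in the other cells, and 393 against 2634 in the cauda. B2m, the light chain of class I, had 3398 against 3140.3 in the corpus and 3890 against 3207 in the cauda. Of the cytokine and innate genes, 3 of 21 were lower in the corpus and 12 of 22 in the cauda (median log2 ratio -0.74 and -2.07), and Il18, an epithelial cytokine, was the only one higher, in the cauda, at 39.7 against 9.78. Cxcl2 and Lcn2 were 4.50-fold and 4.69-fold higher in corpus than in cauda clear cells, and in both regions the other cells held more of them. Cxcl2 had 4410 CPM in the 13 macrophage-marker-rich cells of corpus sub-cluster 5, against 23.1 in the other corpus clear cells, and without marker-rich cells it was 1.60-fold and Lcn2 10.1-fold higher in the corpus. Lcn2, an iron-binding innate protein, had 163 in the corpus and 34.8 in the cauda, against 3674 in caput clear cells. Stress genes of tissue digestion gave 0 of 23 calls in each region, with sums of 15434 against 13878 in the corpus and 18799 against 26487 in the cauda.

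Of the homeobox genes of the Hox clusters, Hoxd3 was higher in the corpus (16.9 against 4.08) and Hoxc9 and Hoxc10 were lower in both regions. Hoxb9 had 90.7 against 22.7 in the corpus, a ratio just under 4, and 82.2 against 22.3 in the cauda. Among markers of endothelium, Vwf, the von Willebrand factor, stood out by being higher in clear cells. It had 28.4 against 2.83 in the corpus and 29.0 against 2.79 in the cauda. Without marker-rich cells 1 such marker was called higher in the corpus and 0 in the cauda. Of these markers 5 of 11 were lower in the corpus and 3 of 10 in the cauda, beside 3.37% and 8.01% of all genes. The list holds Pecam1, which the rule capped, so its part in these counts follows from the choice of cells. Sperm transcripts differed between the regions, with Prm1, a protamine, at 107 in corpus and 3.87 in cauda clear cells, and at 158 and 48.4 in the other cells. Ribosomal protein genes took 8.41% of UMIs in corpus clear cells, against 11.9% in the other cells, and 8.30% against 11.9% in the cauda. These genes were named after their values were seen.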
